A study of Mus musculus with 24 samples.

Results

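Collagen genes encode the chains of the triple-helical proteins that carry most of the tensile load of the extracellular matrix. They were taken as every row of the count table whose symbol reads Col, a number, a and a number (Col3a1, Col12a1 and so on), which gave 38 of 14693 genes. Of these, 34 had enough counts to be tested, and 4 (Col6a4, Col4a4, Col4a3 and Col9a3) were removed by a filter on low counts. Col2a1, Col9a1, Col9a2, Col4a6, Col6a5 and Col6a6 were not analysed here.

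The cells were C2C12, a mouse myoblast line labelled wild type, which exits the cell cycle and fuses into myotubes when serum is lowered. Growth medium held 10% fetal bovine serum, and differentiation medium 2% horse serum. While differentiating, the cells received a vehicle, the omega-6 fatty acid linoleic acid (LA) at 100 µM on bovine serum albumin, or mouse ANGPTL4 as recombinant protein at 10 ng/mL, a secreted inhibitor of lipoprotein lipase. RNA was taken at day 2 or day 6. Each of the 6 groups (vehicle, LA and ANGPTL4 at each day) held 4 libraries, 24 in all. The vehicle's content was not described, so it was not known here whether the controls carried the albumin that the LA cells received. All groups came from 1 cell line, and the labels did not say whether replicates were separate cultures, so p-values measure the spread between these libraries, which may be technical. The myogenic factors Myod1 and Myog and the muscle filament gene Des, which define the line, were detected in every group. Myog had a mean of 806 CPM (counts rescaled to 1 size for all libraries) in vehicle and 682 CPM under LA at day 6.

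Collagen chains assemble in threes. Fibrillar collagens (types I, III, V, XI, XXIV and XXVII) form the load-bearing fibrils. Fibril-associated collagens (XII, XIV, XVI and others) sit on the fibril surface. Type IV forms the sheet-like network of basement membranes, type VI the beaded filaments that link the basement membrane to the surrounding matrix, and transmembrane collagens (XIII, XVII, XXIII and XXV) stay anchored in the cell surface. A muscle fibre is wrapped in a basement membrane rich in type IV, and in humans mutations in type VI and type XII genes cause muscle disease.

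The promoters of 4 members are shown, picked for the counts and changes of these genes. The expression results do not use the sequences. Col4a1 and Col4a2 encode the partner chains of the common type IV trimer, start head to head and moved in the same direction in each comparison where they passed the test. Col3a1 had the highest count, and Col23a1 the largest change during differentiation. The letters are those of RefSeq on GRCm38.p6, another build than the mm39 that the submitters' processing notes name, each 300 bases long and written 5′ to 3′ on the gene's own strand. Capitals mark the motif CCAAT or, on the other strand, ATTGG.
Col4a1 (chr8:11312777-11313076, minus strand): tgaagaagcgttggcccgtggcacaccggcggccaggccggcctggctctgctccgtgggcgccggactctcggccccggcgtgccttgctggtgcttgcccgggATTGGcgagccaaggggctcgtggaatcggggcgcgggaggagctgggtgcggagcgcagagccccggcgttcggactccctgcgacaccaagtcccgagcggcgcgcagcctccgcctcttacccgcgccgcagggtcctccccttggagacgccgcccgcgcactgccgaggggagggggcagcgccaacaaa
Col4a2 (chr8:11312555-11312854, plus strand): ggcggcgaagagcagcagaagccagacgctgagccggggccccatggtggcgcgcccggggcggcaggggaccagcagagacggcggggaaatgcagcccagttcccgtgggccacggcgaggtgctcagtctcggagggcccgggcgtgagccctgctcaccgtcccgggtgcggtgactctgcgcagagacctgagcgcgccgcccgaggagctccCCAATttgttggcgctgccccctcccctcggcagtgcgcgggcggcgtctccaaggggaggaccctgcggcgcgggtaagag
Col3a1 (chr1:45311288-45311587, plus strand): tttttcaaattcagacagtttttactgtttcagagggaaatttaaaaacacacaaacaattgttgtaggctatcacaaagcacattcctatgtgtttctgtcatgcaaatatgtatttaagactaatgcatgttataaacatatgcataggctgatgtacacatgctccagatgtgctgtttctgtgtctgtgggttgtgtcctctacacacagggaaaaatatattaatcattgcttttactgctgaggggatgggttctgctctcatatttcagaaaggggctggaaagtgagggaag
Col23a1 (chr11:51289670-51289969, plus strand): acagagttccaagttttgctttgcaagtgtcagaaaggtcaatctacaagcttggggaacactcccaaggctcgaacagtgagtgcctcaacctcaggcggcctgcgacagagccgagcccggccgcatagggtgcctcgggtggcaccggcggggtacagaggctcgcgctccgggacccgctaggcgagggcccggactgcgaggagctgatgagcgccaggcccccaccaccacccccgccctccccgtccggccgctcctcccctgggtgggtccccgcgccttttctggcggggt

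The start sites of Col4a1 and Col4a2 lay 21 bases apart on opposite strands, and their windows shared 78 bases. The 2 transcripts run across each other there, and their exons overlap on opposite strands in the GENCODE annotation of GRCm38. This overlap lies at the starts of both genes, while the libraries were made from transcript 3′ ends. The strand setting of the counting is not given in the sources used here, and a part of this overlap in the counts was not tested. Both windows were rich in G and C (74.0% and 73.7%) and held 1 CCAAT match each, at position −145 from the start of Col4a1 and −32 from that of Col4a2. The Col3a1 window held 37.7% G and C, no CpG and no CCAAT, and the Col23a1 window 67.7% G and C and no CCAAT. RefSeq windows were matched for 30 of the 38 members (32 windows, since some genes have more than 1 start). On either strand, CCAAT was found in 12 of the 32 (37.5%, against 37.4% of all 32851 promoters), TATAAA in 5 (15.6% against 13.6%), GGGCGG in 19 (59.4% against 35.7%) and the E-box letters CANNTG in 16 (50.0% against 72.3%). These matches describe letters and not binding.

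Together the 38 genes took 5952736 of 310829764 counts (1.92%). The 3 highest genes held 58.6% of the collagen counts and the 10 highest 93.6%. In a library of transcript 3′ ends a count does not grow with transcript length, but the yield of an end can differ between genes, so the order of totals is an order of counts.

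Among fibrillar genes, the total over the 24 libraries was 2104498 counts for Col3a1, the single chain of type III collagen. It was 604677 for Col5a2 and 419629 for Col5a1, chains of the type V collagen that starts fibrils, and 52232 for the related Col5a3. Type I collagen, the main fibril of tendon and bone, had 599587 counts for Col1a2 and 235483 for Col1a1. The minor fibrillar genes followed with 4109 counts for Col11a1, 1810 for Col24a1, 1754 for Col27a1 and 1123 for Col11a2. The fibrillar class thus held the highest total as well as several low ones.

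The fibril-associated Col12a1 had the next highest total of any collagen, 780257 counts. In the same class the total was 6864 for Col16a1, 5628 for Col14a1, 781 for Col19a1, 461 for Col20a1, 274 for Col22a1 (a collagen of the muscle-tendon junction) and 52 for Col9a3. The type IV genes had 209935 counts for Col4a1, 136855 for Col4a2, 4921 for Col4a5, 124 for Col4a4 and 83 for Col4a3. The beaded-filament genes had 271956 counts for Col6a1, 187457 for Col6a3, 155596 for Col6a2 and 141 for Col6a4. The type IV, type VI and fibril-associated classes therefore held both abundant chains and chains close to the lowest total of any gene in the table, 51 counts.

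The short-chain network genes had 111407 counts for Col8a1, 10768 for Col8a2 and 489 for Col10a1, the collagen of growth-plate cartilage. The multiplexins, collagens of the basement membrane zone, had 29055 counts for Col18a1 and 1323 for Col15a1. The transmembrane genes had 6692 counts for Col25a1, 2301 for Col23a1, 1525 for Col13a1 and 339 for Col17a1. The remaining totals were 1961 for Col7a1 (the anchoring fibril of skin), 464 for Col26a1 and 125 for Col28a1.

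**Figure D1:**
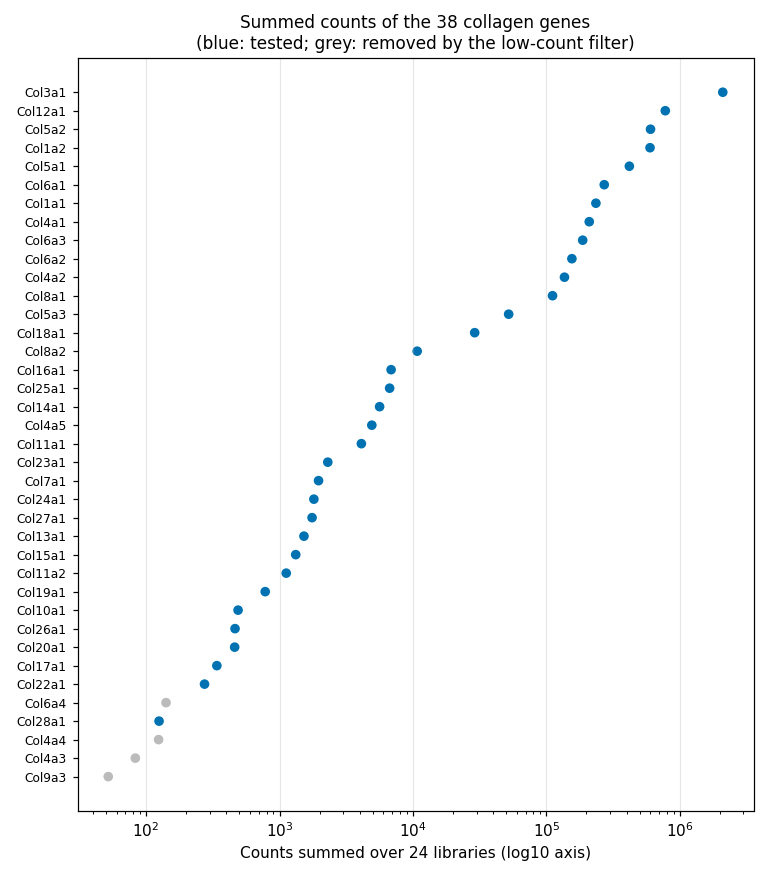
Total count of each of the 38 collagen genes summed over the 24 libraries (horizontal axis, counts, log10 scale), with the 34 tested genes in blue and the 4 removed by the low-count filter in grey. The totals span from 52 (Col9a3) to 2104498 (Col3a1).

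The total count of a library lay between 9850494 and 14529573 in day 2 vehicle, 9547787 and 25049912 in day 2 LA, and 13194847 and 20580188 in day 2 ANGPTL4. At day 6 it lay between 9847952 and 12606450 in vehicle, 8192308 and 15230974 in LA, and 6100684 and 9067864 in ANGPTL4. On principal components of all tested genes, day 2 LA replicate 3 and day 6 ANGPTL4 replicate 1 lay apart from their groups, and results that rest on them are given with and without both. On the same components day 2 LA replicate 3 lay among day 2 ANGPTL4 replicates 1 to 3, and day 2 ANGPTL4 replicate 4 lay nearer day 2 LA replicates 1, 2 and 4 than its own group. On the second component LA replicate 3 was at −19.3 and ANGPTL4 replicates 1 to 3 at −18.0, −19.7 and −15.2, while ANGPTL4 replicate 4 was at −4.61 and LA replicates 1, 2 and 4 at 4.07, 2.73 and 1.32. All libraries were kept under their labels, the day 2 results are also given without this day 2 pair (a setting chosen after seeing the data), and the cause was not tested. Collagen genes took 1.94% ± 0.0843 of the counts (SD, n = 4) in day 6 vehicle and 1.90% ± 0.0400 in day 6 ANGPTL4, against 2.47% ± 0.182 in day 6 LA. The day 6 LA libraries ran from 2.299% to 2.67% and the day 6 vehicle libraries from 1.87% to 2.06%, so these ranges did not overlap. At day 2 the share was 1.79% ± 0.137 in vehicle, 1.77% ± 0.123 in LA and 1.80% ± 0.101 in ANGPTL4, and the 3 ranges overlapped. In bulk RNA a higher share from more cells of a type and from more RNA per cell cannot be told apart.

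During differentiation without treatment, day 6 was compared with day 2 in vehicle. The transmembrane Col23a1 and Col13a1, both type I chains, the 3 type V chains and Col8a1 were among the genes that rose, and Col12a1, Col4a1, Col4a2, Col15a1, Col19a1 and Col24a1 fell. Of the 34 tested collagen genes, 16 rose and 6 fell at an adjusted p under 0.05 (edgeR's quasi-likelihood test, Benjamini-Hochberg over 12994 genes). Among all genes tested 45.6% were called, 25.2% higher and 20.5% lower. The median log2 fold change (log2FC) was 0.17 for the tested collagen genes and 0.02 for all genes.

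Col23a1, a transmembrane collagen, had 2.03, 1.36, 2.01 and 0.990 CPM in the day 2 vehicle replicates 1 to 4 and 30.1, 25.3, 20.3 and 25.4 CPM at day 6. Every day 6 library lay above every day 2 library, a 16.1-fold rise (log2FC 4.01, SE 0.261, adjusted p = 2.58e-11). Col13a1, a transmembrane collagen of the neuromuscular junction, went from 3.71, 3.19, 4.43 and 3.55 CPM to 9.41, 7.77, 10.8 and 12.5 CPM, again without overlap (log2FC 1.46, SE 0.146, adjusted p = 9.71e-10). The other tested transmembrane genes were not called, with a log2FC of −0.14 for Col25a1 (adjusted p = 0.430) and −0.74 for Col17a1 (adjusted p = 0.111).

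Col14a1, which binds fibrils through their surface proteoglycans, rose from 10.2, 11.1, 9.47 and 9.07 CPM to 25.0, 27.2, 29.6 and 23.2 CPM (log2FC 1.39, SE 0.170, adjusted p = 6.56e-07). Col18a1, whose C-terminal fragment is endostatin, rose from 63.8, 70.7, 62.5 and 58.1 CPM to 167, 178, 137 and 159 CPM (log2FC 1.32, SE 0.112, adjusted p = 4.90e-09). The groups did not overlap for either gene. Col8a1 rose from 229, 325, 286 and 229.6 CPM to 474, 521, 471 and 536 CPM (log2FC 0.90, SE 0.127, adjusted p = 9.73e-06), while its partner chain Col8a2 was not called (log2FC 0.30, adjusted p = 0.108). Col7a1 rose from 4.598, 5.23, 4.83 and 4.78 CPM to 7.61, 8.67, 7.93 and 10.7 CPM (log2FC 0.83, SE 0.166, adjusted p = 0.000139), without overlap.

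Of the 10 tested fibrillar genes, 7 rose and 1 fell. Col1a1 had 514, 745, 700.4 and 534 CPM at day 2 and 1171, 1317, 889.7 and 993 CPM at day 6, and the groups did not overlap (log2FC 0.81, SE 0.161, adjusted p = 0.000451). Its partner Col1a2 had a log2FC of 0.18 (adjusted p = 0.0376), a call that ended in 12 of 18 alternatives. Among these were the fits without day 2 vehicle replicate 4 (log2FC 0.12, adjusted p = 0.167), day 2 replicate 1 (adjusted p = 0.113), day 6 replicate 1 (adjusted p = 0.0681) and day 6 replicate 2 (adjusted p = 0.166). Col5a3 (0.81, adjusted p = 0.00329), Col5a1 (0.70, adjusted p = 0.000132), Col11a1 (0.36, adjusted p = 0.0138), Col5a2 (0.30, adjusted p = 5.11e-05) and Col3a1 (0.20, adjusted p = 0.00459) also rose, each value a log2FC. The call of Col5a3 ended when only the 2 compared groups were fitted (adjusted p = 0.0548).

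Further rises were seen for Col4a5 (log2FC 0.70, adjusted p = 1.63e-07), for Col22a1 (0.98, adjusted p = 0.0233) and for Col28a1 (1.66, adjusted p = 0.0170). Col28a1 lay at or below 0.660 CPM in every day 2 vehicle library, and its call ended without day 2 replicate 1 (adjusted p = 0.0544), day 6 replicate 1 (adjusted p = 0.0520) or day 6 replicate 4 (adjusted p = 0.0647). The call of Col22a1 ended without day 2 replicate 4 (adjusted p = 0.104) or day 6 replicate 3 (adjusted p = 0.0666).

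Among the genes that fell, Col12a1, a fibril-associated collagen of dense connective tissue, went from 2495, 2814, 2481 and 3056 CPM to 1799, 1713, 2167 and 2005 CPM without overlap (log2FC −0.50, SE 0.0739, adjusted p = 2.67e-06). Col4a1 went from 668, 787, 713 and 583 CPM to 519, 534, 530.2 and 544 CPM, also without overlap (log2FC −0.37, SE 0.0674, adjusted p = 4.32e-05). Col4a2 went from 425, 492, 449 and 376 CPM to 379.8, 374, 364 and 372 CPM (log2FC −0.22, SE 0.0629, adjusted p = 0.00410). Its groups overlapped at 1 library pair, day 2 replicate 4 and day 6 replicate 1. Col24a1, a minor fibrillar chain, fell from 7.25, 6.93, 7.96 and 7.34 CPM to 3.85, 5.18, 5.10 and 5.19 CPM (log2FC −0.61, SE 0.142, adjusted p = 0.000750). Col15a1 (log2FC −1.11, adjusted p = 0.000119) and Col19a1 (log2FC −1.02, adjusted p = 0.000130) also fell. The type VI chains were not called, with a log2FC of −0.14 for Col6a1, −0.01 for Col6a2 and −0.19 for Col6a3.

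Cell type markers moved over the same days in vehicle. The summed level of 10 of 10 muscle markers ran from 11691 to 12978 CPM at day 2 and from 13843 to 14572 CPM at day 6, with 5 of 10 higher and 3 lower. The sum of 12 of 14 listed fibroblast markers ran from 2740.01 to 2959 and from 3440.05 to 3603 CPM, with 6 of 11 tested higher and 2 lower. Neither pair of ranges overlapped. Among all genes tested 25.2% were called higher and 20.5% lower. The sum of 5 of 5 smooth muscle markers lay lower at day 6, from 1919 to 2223 CPM against 2501 to 3003 CPM, with 0 of 4 tested higher and 1 lower. Bone and cartilage markers overlapped (1571 to 1846 and 1499 to 1705 CPM), with 0 of 4 tested higher and 2 lower. The part of these markers in the collagen changes over the days was not tested.

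**Figure D2:**
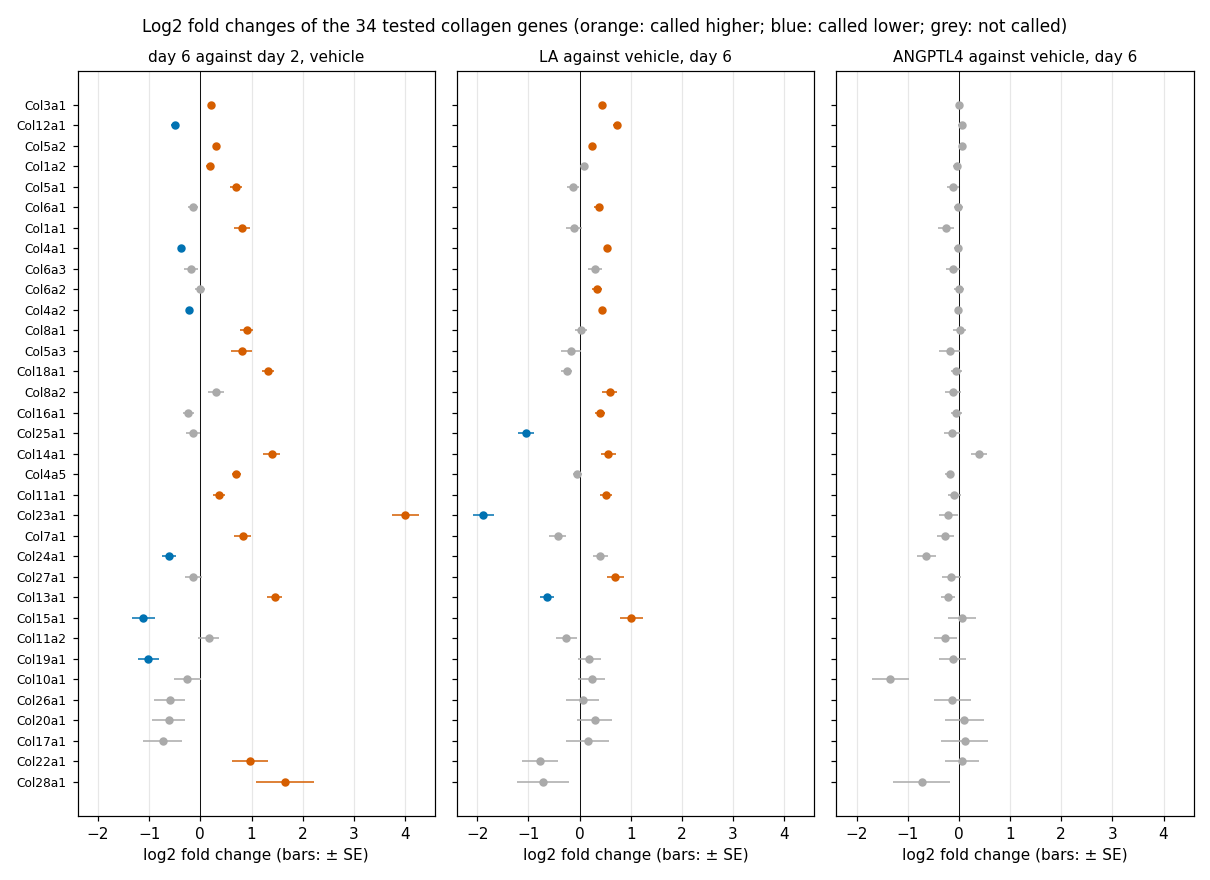
Log2 fold change of the 34 tested collagen genes (rows) for day 6 against day 2 in vehicle, LA against vehicle at day 6 and ANGPTL4 against vehicle at day 6 (panels, on 1 shared horizontal axis), as points with bars of ± 1 SE, orange where called higher, blue where called lower and grey where not called. Col23a1 lies farthest right in the course of differentiation (4.01) and farthest left under LA (−1.88), and no gene is coloured in the ANGPTL4 panel.

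The effect of LA on day 6 cells was read against vehicle at the same day. Under LA, Col12a1, Col14a1, Col3a1, the pair Col4a1 and Col4a2, Col6a1 and Col6a2 were among the genes that rose, and 3 transmembrane collagens fell. Both type I chains and Col5a1 did not pass the test. Of the 34 tested genes 13 rose and 3 fell, where 17.2% of all genes were called, 7.83% higher and 9.38% lower. The median log2FC was 0.21 for the tested collagen genes and −0.01 for all genes. This comparison shares the day 6 vehicle libraries with the course of differentiation.

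Col12a1 had 3213, 3309, 2975 and 3243 CPM in the day 6 LA replicates 1 to 4, against the 1713 to 2167 CPM of day 6 vehicle given above. All LA libraries lay above all vehicle libraries (log2FC 0.73, SE 0.0741, adjusted p = 2.70e-08). Col3a1 had 6909, 7452, 6754 and 6731 CPM in vehicle and 10258, 8673, 9989 and 8812 CPM under LA, with no overlap (log2FC 0.44, SE 0.0569, adjusted p = 7.84e-07). Col14a1 reached 38.1, 45.5, 33.7 and 38.02 CPM under LA, above the 23.2 to 29.6 CPM of vehicle (log2FC 0.56, SE 0.146, adjusted p = 0.00893). The other fibril-associated gene called, Col16a1, had a log2FC of 0.40 (adjusted p = 0.00540), which makes 3 of the 6 tested.

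In the type IV pair, Col4a1 had 791, 764, 785 and 762 CPM under LA, above each vehicle library (log2FC 0.54, SE 0.0675, adjusted p = 5.39e-07). Col4a2 had 526, 494, 513 and 479.7 CPM, likewise above each vehicle library (log2FC 0.43, SE 0.0630, adjusted p = 4.74e-06). The third tested type IV gene, Col4a5, was not called (log2FC −0.05, adjusted p = 0.778). Among the type VI chains, Col6a1 rose (log2FC 0.37, adjusted p = 0.00546), as did Col6a2 (log2FC 0.34, adjusted p = 0.0231), and Col6a3 was not called (log2FC 0.30, adjusted p = 0.144). The call of Col6a2 ended without vehicle replicate 1 (adjusted p = 0.0551), 2 (0.0512) or 3 (0.0520), or without LA replicate 1 (0.0800) or 3 (0.0590).

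Of the 10 tested fibrillar genes 4 rose under LA: Col27a1, Col11a1, Col3a1 and Col5a2. Col27a1, a minor fibrillar collagen of cartilage, had 4.58, 4.59, 5.91 and 3.94 CPM in vehicle and 8.36, 9.54, 6.99 and 6.01 CPM under LA, without overlap (log2FC 0.70, SE 0.160, adjusted p = 0.00189). This call ended when all libraries were thinned to the smallest total (log2FC 0.49, adjusted p = 0.117). Col11a1 had 14.6, 15.9, 12.9 and 16.5 CPM in vehicle and 24.1, 22.9, 22.2 and 15.5 CPM under LA (log2FC 0.51, SE 0.111, adjusted p = 0.00103). Here LA replicate 4 lay among the vehicle libraries and the other 3 above them. Col5a2 had a log2FC of 0.24 (adjusted p = 0.00166).

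Col1a1 had 1213, 856, 1177 and 805 CPM under LA, with libraries on both sides of the vehicle range (log2FC −0.11, SE 0.160, adjusted p = 0.717). Col1a2 had a log2FC of 0.08 (SE 0.0715, adjusted p = 0.482) and Col5a1 of −0.13 (SE 0.123, adjusted p = 0.543). In all 3, LA replicates 1 and 3 lay above LA replicates 2 and 4. This order also held for Col3a1, Col5a2, Col5a3, Col4a1, Col4a2, Col4a5, Col6a1, Col6a2, Col6a3, Col8a1, Col8a2, Col18a1, Col19a1 and the transmembrane Col17a1, Col23a1 and Col25a1, and the reverse order for Col10a1, Col12a1 and Col26a1. Of the genes called under LA, Col11a1, Col13a1, Col14a1, Col15a1, Col16a1 and Col27a1 followed neither order. The cause of that order was not tested.

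Col8a2, a short-chain network collagen, had 32.1, 32.6, 34.9 and 34.9 CPM in vehicle and 61.0, 41.6, 56.8 and 41.8 CPM under LA, without overlap (log2FC 0.59, SE 0.144, adjusted p = 0.00625). Its partner Col8a1 did not pass (log2FC 0.03, adjusted p = 0.924). Col15a1, a multiplexin found around muscle fibres and small vessels, had 0.982, 2.49, 2.59 and 2.39 CPM in vehicle and 4.05, 5.34, 3.56 and 3.84 CPM under LA (log2FC 1.01, SE 0.227, adjusted p = 0.00150). The other multiplexin, Col18a1, was not called (log2FC −0.25, adjusted p = 0.126).

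The genes that fell under LA were 3 of the 4 tested transmembrane collagens. Col23a1 had 10.1, 3.62, 8.95 and 4.14 CPM under LA against 20.3 to 30.1 CPM in vehicle, so every LA library lay below every vehicle library, 3.68-fold lower in the fit (log2FC −1.88, SE 0.204, adjusted p = 6.01e-07). Col25a1, which in mice is made by muscle and needed for its innervation, had 25.6, 21.0, 26.7 and 24.2 CPM in vehicle and 13.9, 10.4, 12.01 and 10.5 CPM under LA (log2FC −1.05, SE 0.156, adjusted p = 3.00e-05). Col13a1 had 6.70, 6.68, 6.01 and 6.501 CPM under LA against 7.77 to 12.5 CPM in vehicle (log2FC −0.64, SE 0.135, adjusted p = 0.000850). None of the 3 overlapped between groups.

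**Figure D3:**
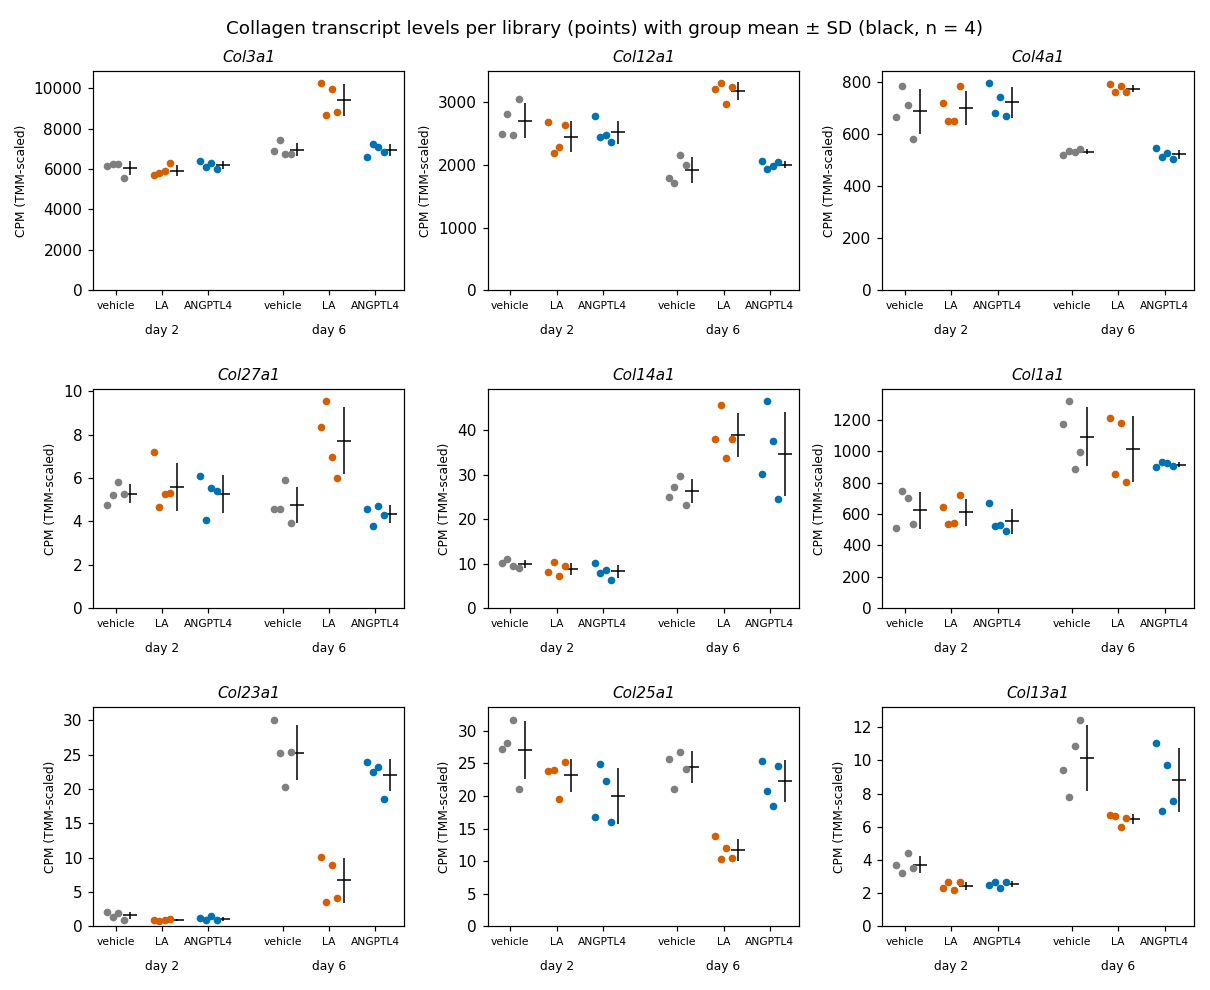
CPM (vertical axis, linear, from 0) of 9 collagen genes in each library (points) of the 6 groups (horizontal axis). The day 6 LA points of Col3a1, Col12a1 and Col4a1 lie above and those of Col23a1, Col25a1 and Col13a1 below all day 6 vehicle points, while those of Col1a1 overlap them. Black marks give the mean ± SD of the 4 libraries.

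Markers of muscle and of fibroblasts moved in the same comparison. The summed level of 10 of 10 muscle markers ran from 13843 to 14572 CPM in day 6 vehicle and from 9868 to 10922.5 CPM in day 6 LA, with 1 of 10 higher and 9 lower. The sum of 12 of 14 listed fibroblast markers ran from 3440.05 to 3603 CPM in vehicle and from 3831 to 4093 CPM under LA, and of 11 tested 6 rose and 0 fell. Among all genes tested 7.83% were called higher and 9.38% lower. Pdgfra, a receptor that marks muscle fibroblasts, had a mean of 27.7 CPM in vehicle and 44.8 CPM under LA, while Fap was near 0 in both (0.289 and 0.403 CPM). Bone and cartilage markers (7 of 11 listed) summed to 1499 to 1705 CPM in vehicle and 1787 to 2228 CPM under LA, with 2 of 4 tested higher and 0 lower. Smooth muscle markers (5 of 5) gave 1919 to 2223 and 1969 to 2141 CPM, with 0 of 4 tested higher and 0 lower. Adipocyte markers (2 of 8) gave 20.2 to 22.5 and 28.4 to 33.2 CPM, with 2 of 2 tested higher. Endothelial markers (3 of 5) stayed at or below 3.53 CPM in each group. The part of these markers in the collagen results was not tested.

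The change of the LA effect from day 2 to day 6 was tested directly, as the difference between the fold changes. It was positive for 12 and negative for 2 of the 34 tested genes, where 19.7% of all genes were called, 8.68% higher and 11% lower. The median was 0.30 for the tested collagen genes and −0.02 for all genes. Col12a1 had the smallest adjusted p, with a change of 0.87 on the log2 scale (SE 0.104, adjusted p = 2.63e-06), followed by Col3a1 (0.47, adjusted p = 0.000128), Col4a1 (0.52, adjusted p = 0.000357) and Col4a2 (0.36, adjusted p = 0.00446). The negative differences were those of Col25a1 (−0.81, adjusted p = 0.00773) and Col7a1 (−0.78, adjusted p = 0.0151). Col7a1 had 5.47, 6.70, 6.28 and 6.75 CPM in day 2 LA, above the day 2 vehicle libraries, and 8.36, 5.05, 4.54 and 6.90 CPM in day 6 LA, where 3 libraries lay below all day 6 vehicle libraries and 1 among them. Its LA effect was called at neither day (adjusted p = 0.145 at day 2 and 0.0614 at day 6). The same was true of Col24a1, given below (0.0837 and 0.0582).

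The other differences called were those of Col24a1 (0.72, adjusted p = 0.00893), Col5a2 (0.29, adjusted p = 0.00934), Col11a1 (0.59, adjusted p = 0.00996), Col14a1 (0.79, adjusted p = 0.0221), Col6a1 (0.42, adjusted p = 0.0247), Col15a1 (0.86, adjusted p = 0.0335), Col6a2 (0.43, adjusted p = 0.0389) and Col16a1 (0.39, adjusted p = 0.0482). The count was 9 without the 2 libraries that lay apart, 9 after thinning and 11 without the day 2 pair. Without day 2 LA replicate 3 alone, the calls of Col14a1 (adjusted p = 0.0581) and Col15a1 (0.0629) ended. Col15a1 also lost its call without day 6 vehicle replicate 1 (0.127), day 6 LA replicate 2 (0.0852) or day 2 vehicle replicate 3 (0.0611). Col14a1 lost it without day 2 vehicle replicate 2 (0.0543), and Col6a1 without that library (0.0515) or day 6 LA replicate 1 (0.0524). The call of Col24a1 ended on thinning (0.124), that of Col16a1 in 19 and that of Col6a2 in 13 of 27 alternatives. Those of Col16a1 and Col6a2 included the loss of most single libraries, and the adjusted p over all alternatives reached 0.151 and 0.0981.

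At day 2, LA left most collagen genes without a call. Of the 34 tested 0 rose and 2 fell, where 15.1% of all genes were called (8.27% higher, 6.82% lower), and the median log2FC was −0.03 against 0.01 for all genes. Col13a1 had 2.32, 2.67, 2.198 and 2.66 CPM under LA, below each of the 4 vehicle libraries (log2FC −0.60, SE 0.169, adjusted p = 0.0156). Col19a1, a minor fibril-associated collagen, had 3.71, 2.79, 3.83 and 4.13 CPM in vehicle and 2.95, 1.76, 2.12 and 2.66 CPM under LA, with 1 overlapping pair of libraries (log2FC −0.59, SE 0.177, adjusted p = 0.0221). Without LA replicate 3, the call of Col13a1 (adjusted p = 0.0718) and that of Col19a1 (adjusted p = 0.0906) ended. The call of Col13a1 also ended without vehicle replicate 3 (0.0553), and that of Col19a1 without vehicle replicate 4 (0.0896) or LA replicate 2 (0.0757). Without the day 2 pair (LA replicate 3 and ANGPTL4 replicate 4), both calls ended as well (0.0726 and 0.0799).

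Of the genes called under LA at day 6, Col13a1 was the one called at day 2. Col23a1 had a day 2 log2FC of −0.76 (SE 0.427, adjusted p = 0.248), with 1 of 16 library pairs higher under LA, and Col8a2 of 0.30 (adjusted p = 0.173), with 14 of 16 pairs higher. Both had the sign of day 6 without a call. Col25a1 (−0.23, adjusted p = 0.255), Col15a1 (0.15, 0.596), Col27a1 (0.11, 0.667) and Col4a2 (0.07, 0.468) also had the sign of day 6, as did Col4a1 (0.03, 0.823) and Col16a1 (0.01, 0.964). The opposite sign was found for Col14a1 (−0.22, adjusted p = 0.448), Col12a1 (−0.15, 0.188), Col6a2 (−0.09, 0.596), Col11a1 (−0.07, 0.723), Col6a1 (−0.05, 0.773), Col5a2 (−0.04, 0.640) and Col3a1 (−0.03, 0.753).

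ANGPTL4 was compared with vehicle at both days. At day 2, 0 of the 34 tested collagen genes rose and 3 fell, where 9.82% of all genes were called (3.86% higher, 5.96% lower). The median log2FC was −0.04 for the tested collagen genes and 0.02 for all genes. Col10a1 had 2.48, 2.04, 2.32 and 2.64 CPM in vehicle and 0.485, 0.609, 0.582 and 1.33 CPM under ANGPTL4, without overlap (log2FC −1.71, SE 0.289, adjusted p = 0.00184). Its exons overlap those of Nt5dc1 on the opposite strand in the GENCODE annotation of GRCm38, and since the strand setting of the counting is not given in the sources used here, the value of Col10a1 is uncertain.

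Col13a1 had 2.47, 2.71, 2.33 and 2.66 CPM under ANGPTL4 at day 2, below each vehicle library (log2FC −0.54, adjusted p = 0.0415). This call ended in 11 of 19 alternatives, among them the loss of any single ANGPTL4 library or of vehicle replicate 1, 3 or 4 (adjusted p from 0.0502 to 0.120) and of the day 2 pair (0.0572). Col25a1 had 27.2, 28.2, 31.7 and 21.0 CPM in vehicle and 16.7, 24.9, 22.3 and 16.03 CPM under ANGPTL4, where the groups overlapped (log2FC −0.43, adjusted p = 0.0454). Its call ended in 10 of 19, among them the loss of vehicle replicate 1, 2 or 3 or of ANGPTL4 replicate 1 or 4 (adjusted p from 0.0740 to 0.128) and of the day 2 pair (0.0991). That of Col10a1 held without the pair (log2FC −2.08, adjusted p = 3.78e-05). This loss takes out the ANGPTL4 library with the most Col10a1 (replicate 4, 1.33 CPM), so it favours a larger fall.

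At day 6, 0 of the 34 tested collagen genes were called under ANGPTL4 by edgeR, by DESeq2 or by limma-voom, where edgeR called 0.0231% of all genes (0.0154% higher, 0.0077% lower). At an unadjusted p under 0.05 there were 3 collagen genes. The share of all genes at that threshold was not counted, so this number is not read as a collagen result. The median log2FC was −0.10 for the tested collagen genes and −0.01 for all genes. Those 3 were Col10a1 (log2FC −1.34, adjusted p = 0.130), Col24a1 (−0.64, adjusted p = 0.139) and Col14a1 (0.39, adjusted p = 0.327). Col24a1 had 3.06, 3.40, 2.696 and 3.15 CPM, below each vehicle library, and Col14a1 had 30.1, 46.4, 37.5 and 24.4 CPM, of which 1 library lay inside the vehicle range. Of the genes that rose under LA, Col14a1 thus lay highest under ANGPTL4 (0.39). The others had a log2FC from −0.15 (Col27a1, SE 0.192) to 0.07 (Col5a2, SE 0.0553). Among them were Col12a1 (0.06, SE 0.0739), Col3a1 (0.00, SE 0.0568) and Col4a1 (−0.02, SE 0.0679). A missed threshold does not show that these genes were equal to vehicle. The change of the ANGPTL4 effect between the days was called for 0 of 34 genes by edgeR, 1 by DESeq2 and 0 by limma-voom. Among all genes edgeR called 0.277% (0.0847% higher and 0.192% lower). An unadjusted p under 0.05 was found for 2 collagen genes, again without a count over all genes.

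LA and ANGPTL4 were also set against each other. This contrast does not use the vehicle means, and the fit takes its spread from all 24 libraries. At day 6, 15 of the 34 tested genes were higher and 2 lower under LA, where 13.9% of all genes were called (6.6% higher, 7.32% lower). The median log2FC was 0.18 for the tested collagen genes and −0.01 for all genes. This comparison shares the day 6 LA libraries with that against vehicle. Col24a1 had 6.43, 7.63, 5.88 and 5.32 CPM under LA, above each ANGPTL4 library given above (log2FC 1.04, SE 0.176, adjusted p = 6.76e-05). Col27a1 had 4.59, 3.79, 4.72 and 4.28 CPM under ANGPTL4, below each LA library (log2FC 0.85, SE 0.178, adjusted p = 0.000921).

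Col12a1 had 2061, 1932, 1982 and 2042 CPM under ANGPTL4, all below the LA libraries (log2FC 0.67, SE 0.0741, adjusted p = 1.76e-07). Col4a1 had 545, 514, 527 and 505 CPM, again all below them (log2FC 0.57, SE 0.0679, adjusted p = 4.58e-07). Col8a2 had 32.3, 26.7, 35.6 and 29.4 CPM (log2FC 0.71, SE 0.152, adjusted p = 0.00267), below each LA library. Col11a1 had 15.6, 13.5, 14.0 and 13.1 CPM, with 1 library above LA replicate 4 (log2FC 0.61, SE 0.120, adjusted p = 0.000438).

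In the other direction, Col23a1 had 23.96, 22.5, 23.2 and 18.6 CPM under ANGPTL4, above each LA library (log2FC −1.67, SE 0.215, adjusted p = 8.41e-06). Col25a1 had 25.3, 20.8, 18.5 and 24.7 CPM, also above each of them (log2FC −0.91, SE 0.166, adjusted p = 0.000413). These were the 2 genes called lower under LA. Col13a1, which fell under LA against vehicle, was not called here, with a mean of 6.47 CPM under LA and 8.81 CPM under ANGPTL4. Col14a1, which rose under LA against vehicle, was not called here either (38.8 and 34.6 CPM).

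Further genes higher under LA than under ANGPTL4 were Col10a1 (log2FC 1.58, adjusted p = 0.00181), Col15a1 (0.95, adjusted p = 0.00729), Col4a2 (0.45, adjusted p = 4.05e-06), Col16a1 (0.45, adjusted p = 0.00407) and Col3a1 (0.44, adjusted p = 1.11e-06). All 3 tested type VI chains were higher as well: Col6a3 (0.42, adjusted p = 0.0427), Col6a1 (0.38, adjusted p = 0.00531) and Col6a2 (0.34, adjusted p = 0.0279). Col5a2 had a log2FC of 0.18 (adjusted p = 0.0273). Against vehicle at day 6, Col10a1 had a log2FC of 0.24 under LA (adjusted p = 0.616) and of −1.34 under ANGPTL4 (adjusted p = 0.130). Its mean was 2.33 CPM under LA and 0.786 CPM under ANGPTL4, and the uncertainty over Nt5dc1 given above applies here too. Without the 2 libraries that lay apart, the calls of Col5a2 (adjusted p = 0.0812), Col6a2 (0.0654) and Col6a3 (0.0515) ended. That of Col6a3 also ended without any 1 of the ANGPTL4 libraries or of LA replicates 1 to 3 (0.0584 to 0.125), and those of Col5a2 and Col6a2 without LA replicate 1 (0.121 and 0.0943), LA replicate 3 (0.0948 and 0.0707) or ANGPTL4 replicate 4 (0.0644 and 0.0864). Col5a2 lost its call without ANGPTL4 replicate 1 too (0.0820). The type I and other type V chains were not called, with a log2FC of 0.15 for Col1a1, 0.13 for Col1a2 and −0.02 for Col5a1, nor was Col8a1 (0.01).

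At day 2, 0 of 34 collagen genes differed between LA and ANGPTL4 by edgeR, by DESeq2 or by limma-voom. Among all genes edgeR called 0.0924% (0.0616% higher, 0.0308% lower). An unadjusted p under 0.05 was found for 3 collagen genes, and the share of all genes at that threshold was not counted. Without day 2 LA replicate 3, without day 2 ANGPTL4 replicate 4, and without the 2 libraries that lay apart, the count of collagen genes called was 1, the gene being Col10a1 (log2FC from 1.26 to 1.41, adjusted p from 0.0189 to 0.0263). Without the day 2 pair it was 2, Col10a1 (log2FC 1.62, adjusted p = 0.00164) and Col17a1 (1.24, adjusted p = 0.0318), both higher under LA. Each library of the pair was picked for lying near the other treated group, so leaving them out favours a wider difference. The same holds for the loss of either library alone, and these gained calls are not support for a difference. The median log2FC over the 34 was 0.01.

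Count ratios of partner chains differed in range between groups for some pairs and overlapped for others. In vehicle the ratio of Col1a1 to Col1a2 counts ran from 0.301 to 0.371 at day 2 and from 0.468 to 0.574 at day 6, so the ranges did not overlap. In day 6 LA it ran from 0.410 to 0.4998, which overlapped vehicle, and in day 6 ANGPTL4 from 0.451 to 0.465, which lay wholly below vehicle. The means of these treated groups were close, 0.458 under LA (SD 0.0484) and 0.456 under ANGPTL4 (SD 0.00655), and the spread differed. The ratio of Col4a1 to Col4a2 ran from 1.55 to 1.60 in day 2 vehicle, from 1.37 to 1.46 in day 6 vehicle and from 1.504 to 1.59 in day 6 LA. The LA range thus lay above the vehicle range of the same day. That of Col8a1 to Col8a2 ran from 9.32 to 10.8 in day 2 vehicle, from 13.5 to 15.98 in day 6 vehicle and from 9.49 to 11.5 in day 6 LA. In day 2 LA it ran from 7.07 to 8.93, wholly below day 2 vehicle. In day 2 ANGPTL4 it ran from 6.45 to 9.85, which overlapped day 2 vehicle. Col5a1 to Col5a2 ran from 0.582 to 0.748 in day 2 vehicle, 0.776 to 0.976 in day 6 vehicle and 0.600008 to 0.737 in day 6 LA. In day 6 ANGPTL4 it ran from 0.7296 to 0.836, which overlapped day 6 vehicle. Col6a3 to Col6a1 overlapped in these groups, in the same order (0.661 to 0.795, 0.656 to 0.749, 0.652 to 0.687 and 0.620 to 0.698). Col6a1 to Col6a2 ran from 1.73 to 1.81 in day 2 vehicle and, overlapping each other, from 1.58 to 1.66 in day 6 vehicle and 1.63 to 1.67 in day 6 LA. In day 2 ANGPTL4 it ran from 1.84 to 1.89, above day 2 vehicle, and in day 2 LA from 1.77 to 1.88, which overlapped it. In day 6 ANGPTL4 the ranges were 1.39 to 1.48 for the type IV pair and 14.6 to 19.0 for the type VIII pair, and each overlapped that of day 6 vehicle. The ratios were not tested, and they compare the ends of different transcripts.

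**Figure D4:**
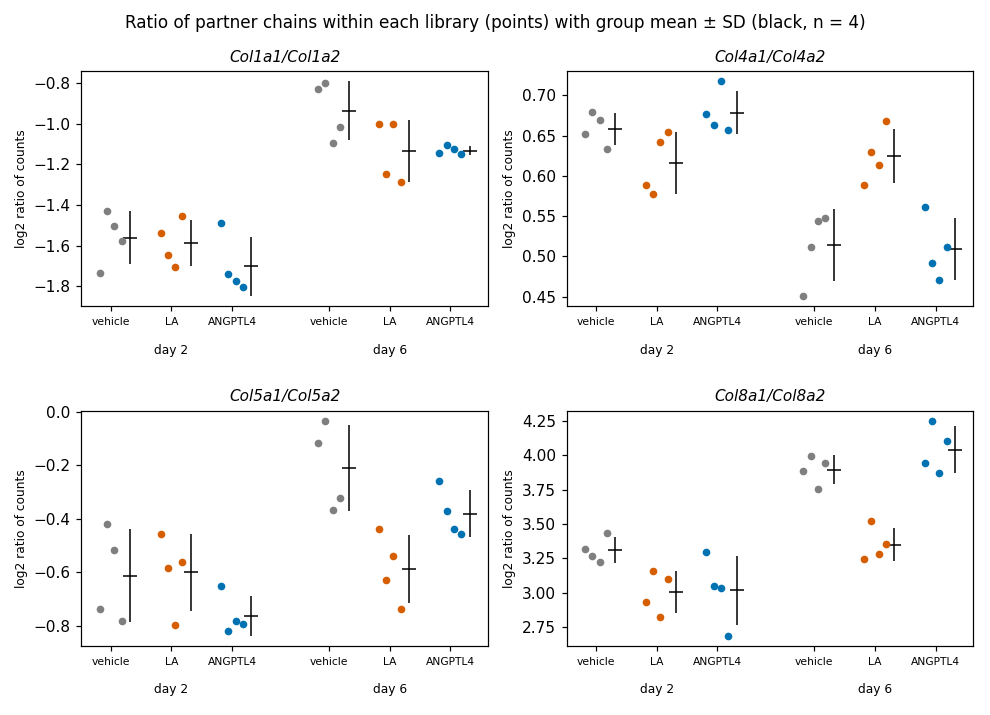
Log2 of the count ratio of partner chains (vertical axis, log2 units) in each library (points) of the 6 groups (horizontal axis), for Col1a1 to Col1a2, Col4a1 to Col4a2, Col5a1 to Col5a2 and Col8a1 to Col8a2, with the mean ± SD of the 4 libraries in black. For the type IV, type V and type VIII pairs, the day 6 LA points and the day 6 vehicle points occupy ranges that do not overlap.

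Collagen chains need enzymes and chaperones to fold, proteases and oxidases to mature, and receptors and proteases to be read and removed. In the course of differentiation in vehicle, 9 of 21 tested genes of chain modification and folding rose and 1 fell, and the median log2FC was 0.10. Of 13 genes of procollagen processing and cross-linking 10 rose and 1 fell (median 0.27), of 11 receptor and uptake genes 4 rose and 4 fell (median −0.07), and of 15 breakdown and inhibitor genes 8 rose and 1 fell (median 0.39), against the 45.6% of all genes called. The cross-linking oxidase Loxl2 had a log2FC of 1.29 (adjusted p = 3.56e-08) and Loxl4 of 0.73 (adjusted p = 0.000158). Timp3, a metalloproteinase inhibitor bound to the matrix, went from a mean of 518 to 983 CPM (log2FC 0.92, adjusted p = 1.61e-12), and Itga10, a collagen-binding integrin chain, had a log2FC of 0.74 (adjusted p = 0.000331). The prolyl hydroxylase P4ha3 fell (log2FC −0.60, adjusted p = 2.56e-06), as did the collagen receptors Ddr2 (−0.35, adjusted p = 2.88e-07) and Ddr1 (−0.22, adjusted p = 0.000643) and the protease Mmp11 (−0.34, adjusted p = 7.04e-05).

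Under LA at day 6, 6 of 21 folding genes rose and 0 fell (median log2FC 0.08). In processing and cross-linking 3 of 13 rose and 1 fell (median 0.15), among receptors 3 of 11 rose and 2 fell (median 0.12), and in breakdown 5 of 15 rose and 2 fell (median 0.22), where 17.2% of all genes were called (7.83% higher, 9.38% lower) with a median of −0.01. The gelatinase Mmp2 had 1160, 1201, 1232 and 1203 CPM in vehicle and 1774, 1834, 1847 and 2008 CPM under LA, without overlap (log2FC 0.64, SE 0.0594, adjusted p = 2.48e-09). The prolyl hydroxylases P3h2 (log2FC 0.77, adjusted p = 0.00405) and P4ha3 (0.58, adjusted p = 2.14e-05) and the integrin chain Itga1 (0.63, adjusted p = 0.00435) rose. Itga10 (−0.65, adjusted p = 0.00390), the membrane protease Mmp15 (−0.61, adjusted p = 8.35e-08), the inhibitor Timp1 (−0.28, adjusted p = 0.00440) and the procollagen protease Adamts14 (−0.25, adjusted p = 0.00122) fell. Against ANGPTL4 at day 6, P3h2 (0.78), Itga1 (0.67), Mmp2 (0.62) and P4ha3 (0.57) were again higher and Mmp15 (−0.43), Itgb1 (−0.17) and Sec23a (−0.16) lower. The call of Sec23a ended in 11 of 18 alternatives (adjusted p up to 0.198) and that of Itgb1 in 3, among them the loss of LA replicate 2 (0.0793) or ANGPTL4 replicate 3 (0.0515).

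At day 2 the same lists gave these counts. Under LA 2 of 21 folding genes rose and 2 fell, 0 of 13 processing genes were called, 1 of 11 receptor genes fell and 2 of 15 breakdown genes rose, where 15.1% of all genes were called (8.27% higher, 6.82% lower). Ppib, a prolyl isomerase of the collagen folding complex, had a log2FC of 0.61 (adjusted p = 0.0228), which ended without LA replicate 3 (0.49, adjusted p = 0.111) and in 8 other alternatives, each loss of LA replicate 1 or 2 or vehicle replicate 3 or 4 included (adjusted p from 0.0529 to 0.0636). Mia3 (−0.24, adjusted p = 0.00634) and Tmem131 (−0.26, adjusted p = 0.00159), which act in collagen secretion, fell. Timp1 (0.22), Mmp11 (0.20), the collagen chaperone Serpinh1 (0.16) and the collagen-binding receptor Antxr1 (−0.18) were called too. Each of these calls ended without LA replicate 3 (adjusted p from 0.0531 to 0.208), without vehicle replicate 4 (0.0896 to 0.176) and with only the compared groups. In this order they ended in 8, 7, 7 and 5 of 19 alternatives. Under ANGPTL4 at day 2, of 21 tested folding genes 3 rose and 1 fell, where 9.82% of all genes were called (3.86% higher, 5.96% lower), with P3h4 (0.27, adjusted p = 0.00473) at the top and Tmem131 (−0.21, adjusted p = 0.0105) at the bottom, and no gene of the other lists was called. Crtap (0.19, adjusted p = 0.0428) and Serpinh1 (0.16, adjusted p = 0.0448) rose, calls that ended in 14 and 15 of 19 alternatives. The call of Tmem131 ended without vehicle replicate 4 (adjusted p = 0.0517). Under ANGPTL4 at day 6, 0 genes of the 4 lists were called by edgeR.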

How the data were processed

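RNA of 24 C2C12 libraries was sequenced from transcript 3′ ends with a QuantSeq kit, per the labels' protocols. Trimmomatic, STAR 2.7.1a, HTSeq 0.9.1, DESeq2, DESeq and the build mm39 are named, per the submitters' processing notes, without their settings. The authors deposited raw counts as whole numbers for each gene symbol, and how genes of low count had been removed is not given in the sources used here.

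Counts were filtered with edgeR's filterByExpr (12994 of 14693 genes kept, 1699 removed), scaled by TMM and fitted in R 4.3.3 with edgeR 4.0.16 (robust quasi-likelihood, group means of all 24 libraries, 18 residual degrees of freedom, common biological variation 6.51%). P-values were Benjamini-Hochberg adjusted over all genes, with calls under 0.05. Adjusted p-values are those of this fit except where DESeq2 or limma is named. SE was approximated as the log2 fold change over the root of F. CPM uses TMM-scaled totals, and the smallest library total was 6100684 counts.

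The rule for values of each library took called genes reaching 5 CPM in 1 of the groups compared, up to the 6 highest and 6 lowest fold changes, and further called genes with fold change and p. Partner chains of named trimers were added, and up to 4 called partner genes in each direction. Members outside it given by library (Col3a1, Col1a1, Col15a1, Col10a1 and the day 2 and day 6 genes set beside a named value) were chosen after their values were seen. The members and all lists were chosen with earlier results of these data known. Alternatives were DESeq2 1.42.0, its size factors, library totals alone, limma-voom 3.58.1, no filter, a filter of 5 CPM in 4 libraries, compared groups only, a replicate block, thinning and left-out libraries, of which the loss of the day 2 pair was added after seeing the data. The fit was tested on counts simulated for LA against vehicle at day 6. It recovered 74% of 100 genes changed by a log2FC of 0.5 and 89% of 100 changed by 1, with 6 false calls. Smaller changes were not simulated.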

Additional observations from a re-analysis of the deposited data

Results flagged for a closer look

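In 210 groups of 4 libraries (the 34 tested genes and the collagen share of counts, in each of 6 groups), 13 held a library whose gap to its nearest neighbour was above Dixon's critical value of 0.829 of the group's range. Chance alone flags about 1 in 20 such groups. In day 2 vehicle, Col3a1 had 5541 CPM in replicate 4 against 6177 to 6268 in the others. In day 2 LA, Col10a1 had 0.942 CPM in replicate 3 (others 1.65 to 1.77), Col11a2 4.88 in replicate 2 (3.53 to 3.68), Col5a2 1847 in replicate 4 (1597 to 1639) and Col8a2 27.3 in replicate 2 (35.1 to 36.6). In day 2 ANGPTL4, replicate 4 had 1.33 CPM of Col10a1 (0.485 to 0.609) and 1.63 CPM of Col17a1 (0.631 to 0.744). Replicate 1 of the same group had 177 CPM of Col5a3 (106 to 117) and 754 CPM of Col6a3 (499 to 535). In day 6 vehicle, replicate 1 had 0.982 CPM of Col15a1 (2.39 to 2.59) and 3.85 CPM of Col24a1 (5.10 to 5.19). In day 6 ANGPTL4, Col19a1 had 2.38 CPM in replicate 1 (1.35 to 1.46) and Col26a1 0.809 CPM in replicate 3 (1.01 to 1.05).

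The LA effect differed between the days by the direct test for 14 genes, given here as the log2 effect at day 6 minus that at day 2. It was 0.87 for Col12a1, 0.86 for Col15a1, 0.79 for Col14a1, 0.72 for Col24a1, 0.59 for Col11a1, 0.52 for Col4a1 and 0.47 for Col3a1. It was 0.43 for Col6a2, 0.42 for Col6a1, 0.39 for Col16a1, 0.36 for Col4a2 and 0.29 for Col5a2. It was −0.81 for Col25a1 and −0.78 for Col7a1.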

How the results depend on the processing

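Of 74 collagen calls over the comparisons, 55 held in every alternative that gave the gene an adjusted p and 19 ended in at least 1. Of 42 partner-gene calls, 10 ended in at least 1. Genes of low count, such as Col19a1 and Col10a1, were removed by the stricter filter and so were not tested there. Leaving out day 2 LA replicate 3 and day 2 ANGPTL4 replicate 4 together (the day 2 pair) was chosen after seeing the data. For LA at day 2 (2 called), the count was 1 under the stricter filter and under DESeq2, where Col19a1 got no adjusted p and so could not be called. The count was 0 with only the compared groups, after thinning, without the 2 libraries that lay apart and without the day 2 pair. It was 0 to 2 when libraries were left out singly. For ANGPTL4 at day 2 (3 called), it was 1 with only the compared groups, after thinning and without the day 2 pair, and 1 to 2 on single loss. For LA against ANGPTL4 at day 2 (0 called), it was 1 without the 2 libraries, 2 without the day 2 pair and 0 to 1 on single loss. For the change of the LA effect (14 called), it was 9 after thinning, 9 without the 2 libraries and 10 to 15 on single loss. For the change of the ANGPTL4 effect (0 called), DESeq2 gave 1. Beyond the missing adjusted p of Col19a1, the cause of these moves was not tested, except that thinning and left-out libraries hold fewer counts or samples. On single loss the counts ran from 20 to 23 for the course of differentiation (22 called), 15 to 17 for LA at day 6 (16 called), 14 to 17 for LA against ANGPTL4 at day 6 (17 called) and 0 for ANGPTL4 at day 6.

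Fold changes near 0, none of them called, changed sign. That of Col8a1 under LA at day 6 was −0.0025 without vehicle replicate 3, −0.043 without LA replicate 1 and −0.015 without LA replicate 3, and single loss gave up to 0.112. Against ANGPTL4 it was −0.00466 in limma-voom, −0.00521 without the 2 libraries, −0.063 without LA replicate 1 and −0.036 without LA replicate 3, and single loss gave up to 0.0902. That of Col5a1 against ANGPTL4 was 0.019 with library totals alone, 0.045 and 0.060 without LA replicates 2 and 4, and 0.00651 without ANGPTL4 replicate 1, and single loss gave down to −0.110. No setting moved the median of all genes by more than 0.1.

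The replicate number as a block gave 22 calls for the course, 2 for LA at day 2, 17 for LA at day 6, 2 for ANGPTL4 at day 2, 16 for LA against ANGPTL4 at day 6 and 15 for the change of the LA effect. The numbers are not known to pair the libraries: same-numbered libraries had correlated deviations from −0.172 to 0.183. Genes under a few CPM, such as Col28a1, Col22a1 and Col10a1, are limited by depth.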
